A study of Mus musculus with 20 samples.

Results

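The 10 genes described here handle iron and heme: Hmox1 and Hmox2 break heme down, Tfrc, Trf, Steap3 and Slc11a2 bring iron into the cell, Fth1 and Ftl1 form its store, and Slc40a1 and Heph serve its export. They were taken as a named list, matched by Ensembl identifier to mouse symbols, and make up 10 of the 47729 genes in the count tables. All 10 were listed in all 20 libraries, and all 10 passed the filter on low counts. Their RNA was measured in kidney cells sorted with magnetic beads for Sca-1, a surface protein encoded by Ly6a, in 6 groups. Day 0 libraries came from freshly isolated cells of control mice (n = 2) and of mice given roxadustat (n = 2), for which the labels name intraperitoneal injection of 33 mg/kg over 7 days. The culture groups were control and roxadustat cells kept for 7 days (n = 4 each) or 21 days (n = 4 each) at 20% oxygen and 5% CO2 in a medium with serum. The design text speaks of culture with roxadustat added; whether those cultures were also started from injected animals is not stated. No strain, age or sex was given. Nothing in the labels says that replicates are separate animals or cultures, so p values rest on the spread among libraries, which may be technical.

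Cells take up most of their iron as transferrin bound to the transferrin receptor; the iron is reduced in the endosome by Steap3, leaves it through Slc11a2, is stored in ferritin, a shell of heavy and light chains, and leaves the cell through ferroportin, the product of Slc40a1. Heme oxygenases release iron from heme together with biliverdin and carbon monoxide. Iron regulatory proteins bind hairpins called iron-responsive elements: when iron is scarce they block translation of messages that carry the element in the 5′ untranslated region (UTR) and protect messages that carry it in the 3′ UTR from decay. In the kidney, tubule cells take iron back from the filtrate. Roxadustat inhibits the prolyl hydroxylases, iron-dependent enzymes through which hypoxia-inducible factor (HIF) is degraded. The members described as HIF targets in other settings include Tfrc, Hmox1 and Slc40a1, which are named here as examples.

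The iron-responsive elements of 4 members are shown because these genes gave several of the differences below and because counts of such messages do not report how far they are translated. The hairpin was searched as a C, 5 stem bases, the loop CAGTGN and 5 bases able to pair with the first 5, in all protein-coding transcripts of GENCODE M21 (build GRCm38). It was found in the 5′ UTR of 31 of 21877 genes (0.142%), among them Fth1, Ftl1 and Slc40a1, and in the 3′ UTR of 129 genes (0.59%), among them Tfrc with 4 sites. Capitals mark the loop.
Fth1, 5′ UTR, exon 1, chr19:9982732-9982760, plus strand: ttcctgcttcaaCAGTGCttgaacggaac
Ftl1, 5′ UTR, exon 1, chr7:45459779-45459807, minus strand: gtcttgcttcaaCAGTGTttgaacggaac
Slc40a1, 5′ UTR, exon 1, chr1:45925465-45925493, minus strand: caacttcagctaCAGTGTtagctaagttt
Tfrc, 3′ UTR, exon 19, chr16:32631219-32631247, plus strand: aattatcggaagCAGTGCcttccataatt
Tfrc, 3′ UTR, exon 19, chr16:32631598-32631626, plus strand: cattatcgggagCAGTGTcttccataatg
Tfrc, 3′ UTR, exon 19, chr16:32631663-32631691, plus strand: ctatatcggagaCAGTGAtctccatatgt
Tfrc, 3′ UTR, exon 19, chr16:32631710-32631738, plus strand: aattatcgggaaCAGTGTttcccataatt
No site of this strict form was found in the other members, which says only that these letters are not in those transcripts. The search misses a hairpin with an unpaired or extra stem base, so the other members are not shown to lack the element.

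Library totals ranged from 8502011 to 19903160 counts in genes. Although the labels call the cells mesenchymal stem cell-like, tubule transcripts were abundant in the fresh libraries. Levels are given in CPM, counts scaled to a common library size. The 14 proximal tubule markers summed to 47957 to 56371 CPM in control and 63783 to 64468 CPM in roxadustat libraries at day 0. In culture they summed to 114.5 to 311 CPM. A list of 13 fibroblast and pericyte markers summed to 321 to 505 CPM in control and 1598 to 2695 CPM in roxadustat cells at day 0, and to 52081 to 55098 CPM in control against 2773 to 4000 CPM in roxadustat cells at day 21. Ly6a itself was higher in roxadustat cells on every day. The 4 control libraries of day 21 fell into 2 close pairs, replicates 1 with 2 and 3 with 4, whose counts still differed beyond sampling noise. In bulk libraries, fewer cells of a type and less RNA per cell cannot be told apart.

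**Figure D1:**
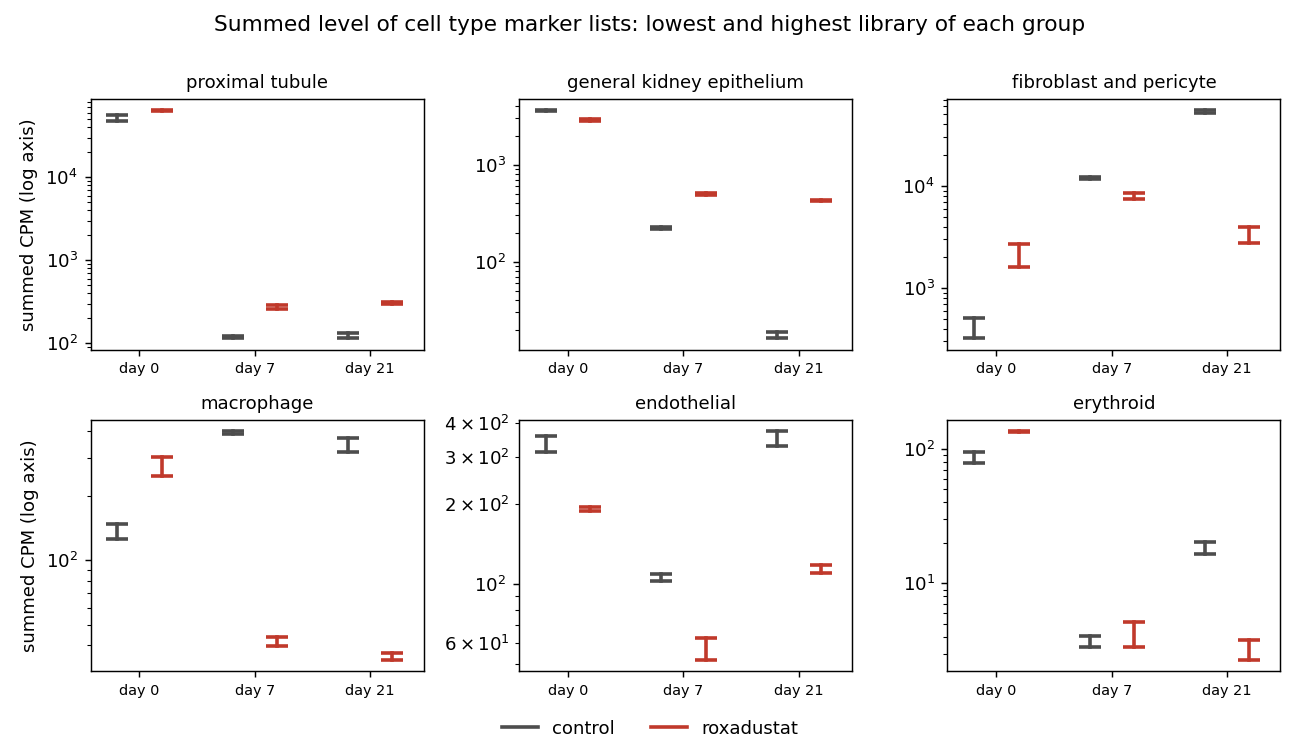
Summed CPM of 6 cell type marker lists (log axis) by day; bars run from the lowest to the highest library of each group, control in grey and roxadustat in red. Proximal tubule markers are high at day 0 only, general kidney epithelium markers at day 21 are at 418 to 433 CPM in roxadustat and 16.2 to 19.0 CPM in control cells, and macrophage markers are lower in roxadustat than in control culture.

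Levels below are CPM scaled by TMM, a method that sets libraries to the same level over most genes, and differences are log2 fold changes of an edgeR fit over all 20 libraries with their standard error (SE) and p adjusted over 18731 genes; a gene is called at an adjusted p under 0.05. In fresh cells, with 2 libraries per arm, 1 member was called higher and 2 lower, where 2.73% and 4.11% of all genes tested were; the count of 1 higher, which is Trf, became 0 when any 1 of the 4 libraries was left out, and that of 2 lower became 1 without control replicate 1 or roxadustat replicate 2. In a fit of the day 0 libraries alone, 19 of 15575 genes were called higher and 4 lower, against 511 and 769 of 18731 in the main fit. Most day 0 calls thus rest on spread shared with the culture libraries. Those in the lists below come from the fit of all 20 libraries too. At day 7, 6 members were higher, 2 lower and 2 not called (24.1% of all genes higher, 23.6% lower). At day 21, 3 were higher, 5 lower and 2 not called (30.0% of all genes higher, 32.9% lower), which under scaling by library size alone became 6 higher and 3 lower. The libraries of both arms did not overlap for 5, 8 and 8 of the 10 members at day 0, 7 and 21, against 42.3%, 47.7% and 56.2% of all genes tested. The shares of all genes are high in culture too, and nothing particular to iron genes is read from the counts. The median absolute log2 fold change of the members was 0.22, 0.47 and 0.76 on the 3 days, and that of all genes 0.19, 0.33 and 0.52.

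**Figure D2:**
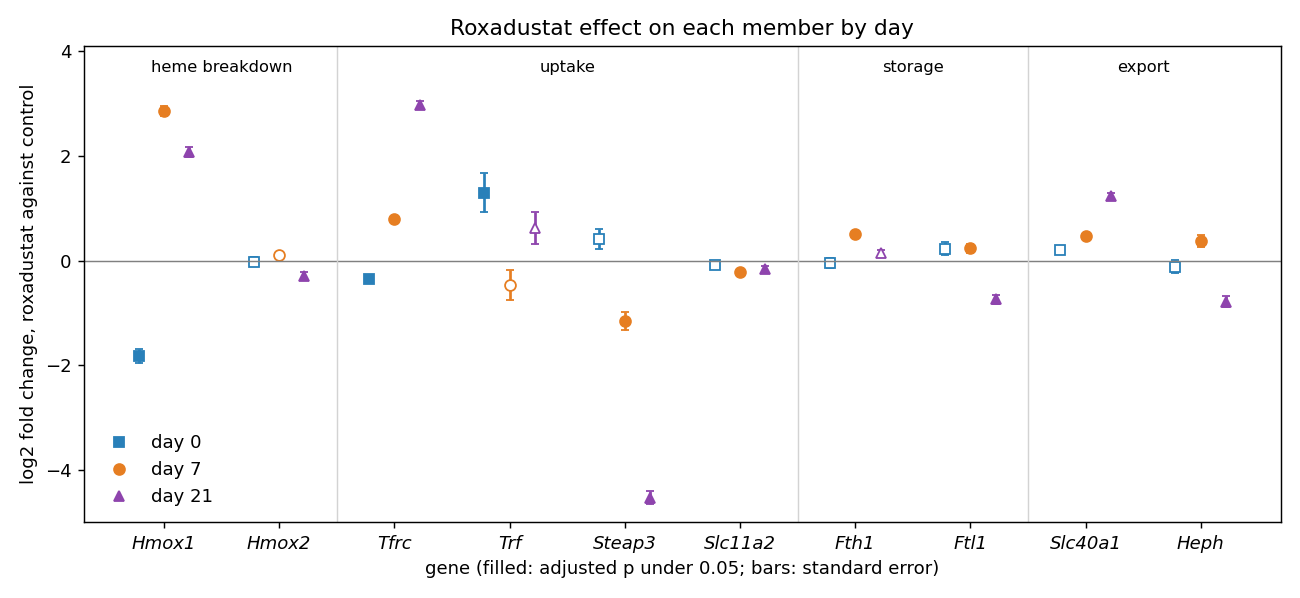
Log2 fold change of roxadustat against control for each member (y axis) at day 0 (squares), day 7 (circles) and day 21 (triangles), with SE bars; filled symbols have an adjusted p under 0.05. Hmox1 moves from -1.83 at day 0 to 2.86 at day 7, Tfrc from -0.35 at day 0 to 2.97 at day 21, and Steap3 lies at -4.53 at day 21.

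Hmox1, the inducible heme oxygenase (ENSMUSG00000005413, chromosome 8, 75093621 to 75100589, plus strand, GRCm38), went in opposite directions in fresh and cultured cells. It was at 211 and 222 CPM in control and 62.9 and 58.7 CPM in roxadustat libraries at day 0. At day 7 control libraries had 217, 197, 202 and 190 CPM and roxadustat libraries 1506, 1429, 1476 and 1443 CPM. At day 21 they had 283, 267, 234 and 241 CPM in control and 1147, 813, 1150 and 1211 CPM in roxadustat cells. The arms did not overlap on any day: roxadustat libraries were the lower ones at day 0 and the higher ones in culture. Its log2 fold change was -1.83 ± 0.13 at day 0 (SE, edgeR adjusted p = 4.78e-09), 2.86 ± 0.09 at day 7 (adjusted p = 3.07e-17) and 2.08 ± 0.09 at day 21 (adjusted p = 1.36e-15). The SE and p of day 0 rest on 2 libraries per arm and on spread shared with the culture groups. Over the alternatives the day 0 value was -1.89 to -1.78. In absolute log2 fold change Hmox1 exceeded 97.1%, 98.2% and 85.4% of all genes tested on the 3 days.

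The change of direction was tested as the roxadustat effect at day 7 minus that at day 0, which was 4.69 ± 0.17 for Hmox1 on the log2 scale (edgeR adjusted p = 9.42e-16). From day 7 to day 21 the effect became smaller by 0.78 ± 0.12 (adjusted p = 1.36e-05). Control cells moved far less over time: 216 ± 8.35 CPM at day 0 (SD, n = 2), 202 ± 11.6 at day 7 and 256 ± 22.6 at day 21 (n = 4 each). The step from day 0 to day 7 in control was not called (log2 fold change -0.10 ± 0.11, adjusted p = 0.394), and scaling by library size alone turned it to 0.32; from day 7 to day 21 control cells rose by 0.35 ± 0.09 (adjusted p = 0.00145; 0.15 and 0.125 under library size alone). Roxadustat cells rose 24.0-fold from day 0 to day 7 (60.8 ± 2.97 to 1463 ± 34.5 CPM, adjusted p = 5.33e-19). The group order from low to high was thus roxadustat day 0, control day 7 and control day 0 without a called difference, control day 21, roxadustat day 21 and roxadustat day 7.

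Macrophages express Hmox1 strongly, so the macrophage markers are given beside it. Of 14 tested markers, 11 were higher and none lower in roxadustat cells at day 0, and 1 was higher and 13 lower at each culture day. Their sum was 125 to 147 CPM in control and 247 to 302 CPM in roxadustat libraries at day 0, 388 to 398 against 39.7 to 43.8 CPM at day 7, and 319 to 373 against 34.3 to 36.8 CPM at day 21. The macrophage sum was on the opposite side to Hmox1 on all 3 days. The other marker lists did not share 1 direction at day 0. Lower together with Hmox1 were 10 of 12 endothelial markers, with none higher (sum 188 to 195 CPM in roxadustat against 312 to 360 CPM in control libraries). Of 12 general kidney epithelium markers 8 were lower and none higher (2793 to 2951 against 3543 to 3654 CPM). Of 12 loop, distal tubule and collecting duct markers 3 were lower and none higher. On the other side, 7 of 13 fibroblast and pericyte markers were higher and none lower. The proximal tubule sum was also higher (63783 to 64468 against 47957 to 56371 CPM), with 1 of 14 markers called higher and 1 lower. At day 7 and day 21 the general kidney epithelium markers were higher together with Hmox1, as given for Tfrc below. Fresh cells also held erythroid transcripts: 11 such markers summed to 78.3 to 95.1 CPM in control and to 134.7 to 135.0 CPM in roxadustat libraries. The alpha globin genes Hba-a1 and Hba-a2 were at 0 in all cultured libraries. The day 0 marker counts come from the fit of all 20 libraries. A fit of the day 0 libraries alone called 19 genes higher and 4 lower in all, so these counts do not all hold there. The part of these cell types in the Hmox1 values was not tested.

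Hmox2, the constitutive heme oxygenase (ENSMUSG00000004070, chromosome 16, 4726361 to 4766742, plus strand), moved little between arms. Its level was 46.1 ± 3.16 and 45.4 ± 1.53 CPM in fresh control and roxadustat cells, 27.4 ± 1.53 and 29.4 ± 0.743 CPM after 7 days, and 23.3 ± 1.54 and 19.1 ± 1.05 CPM after 21 days. The day 21 difference of -0.29 ± 0.07 was called lower (edgeR adjusted p = 0.000633), but the direction turned to 0.06 under scaling by library size alone. Of its exon bases 40.2% overlap Cdip1 on the other strand, and the libraries are not stranded, so reads of the pair cannot be told apart. Cdip1 was at 50.3 ± 1.10 and 63.0 ± 2.43 CPM in control and roxadustat cells at day 21.

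Within a library, the ratio of Hmox1 to Hmox2 counts needs no scaling. There were 4.72 ± 0.504 counts of Hmox1 per count of Hmox2 in control and 1.34 ± 0.111 in roxadustat cells at day 0 (SD, n = 2). The ratio was 7.37 ± 0.673 against 49.7 ± 0.564 at day 7 and 11.0 ± 0.732 against 56.4 ± 7.48 at day 21 (n = 4 each). At both culture days every roxadustat library lay above every control library (exact permutation test, two-sided, p = 0.02857 and 0.02857 adjusted over 4 tests, the smallest that 4 against 4 can give). The test takes each library as separate, although the 4 control libraries of day 21 form 2 close pairs. At day 0 the smallest p possible is 0.333, which was the value found in the exact test.

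**Figure D3:**
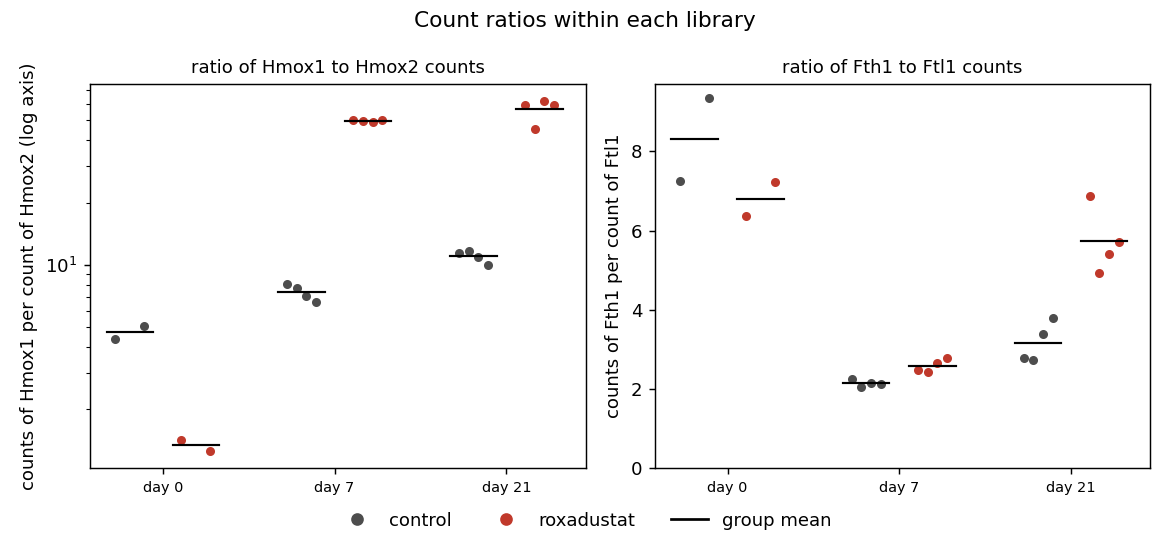
Counts of Hmox1 per count of Hmox2 (left, log axis) and of Fth1 per count of Ftl1 (right, linear axis) in each library by day; points are libraries, control in grey and roxadustat in red, and lines are group means. The left ratio is near 50 in all roxadustat libraries of day 7, and the right ratio falls from day 0 to day 7 in both arms.

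Tfrc, the transferrin receptor (ENSMUSG00000022797, chromosome 16, 32608920 to 32632794, plus strand), was the member with the widest gain under roxadustat at day 21. Control libraries had 358 and 284 CPM at day 0, 118, 120, 116 and 118 CPM at day 7, and 19.9, 19.3, 17.8 and 18.6 CPM at day 21. Roxadustat libraries had 256 and 247 CPM at day 0, 211, 214, 204 and 186 CPM at day 7, and 141, 153, 155 and 145 CPM at day 21. Tfrc fell with time in both arms, and far more in control cells: the step from day 7 to day 21 was a fall of 6.22-fold in control (adjusted p = 3.26e-22) and of 1.37-fold in roxadustat cells (adjusted p = 3.08e-07). Roxadustat cells of day 7 lay 1.23-fold below those of day 0 (adjusted p = 0.000428), a direction that turned to 0.13 on the log2 scale under library size alone.

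At day 7 the roxadustat effect on Tfrc was 0.79 ± 0.06 and at day 21 2.97 ± 0.07 on the log2 scale (SE, edgeR adjusted p = 1.05e-11 and 9.62e-24), and the difference between these effects was 2.18 ± 0.09 (adjusted p = 1.95e-17). At day 0 Tfrc was called lower, by -0.35 ± 0.08 (adjusted p = 0.00775). That call rests on the spread of all libraries and on single ones: the adjusted p was 0.383 in a fit of the day 0 libraries alone, 0.207 without control replicate 1 and 0.0730 without roxadustat replicate 2. General kidney epithelium markers moved with the culture result: 12 of 12 were higher in roxadustat cells at day 21 and 10 of 12 at day 7, where 30.0% and 24.1% of all genes were. Their sum in control cells was 216 to 226 CPM at day 7 and 16.2 to 19.0 CPM at day 21, against 488 to 508 and 418 to 433 CPM in roxadustat cells. The part of epithelial cells in the Tfrc values was not tested.

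The promoter table of RefSeq (GRCm38.p6), which holds 250 bases before to 50 after a start site, matched 5 of the members with 12 windows: Fth1, Ftl1, Hmox2, Steap3 and Tfrc. Among these, ACGTG, the core letters of the HIF site, occurred in Tfrc alone, at 1 genomic position that both of its windows cover, on the plus strand. It starts 2 bases before the first start site, and 19.6% of the 32851 windows of all genes hold these letters on either strand. The 30 bases at that start site are shown with the letters in capitals.
Tfrc, chr16:32608869-32608898, plus strand: cttgggggagcacctcggtaggtgtACGTG
The other HIF core, GCGTG on either strand, was found in at least 1 window of each of the 5 genes (32.4% of all windows hold it). Neither TGACNNNGC, the letters of an antioxidant response element, nor TGANTCA, those of an AP-1 site, was in the 12 windows, against 12.4% and 7.81% of all windows. Such a match is a description of letters and not of binding.

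Steap3, the ferric reductase of the endosome (ENSMUSG00000026389, chromosome 1, 120190757 to 120272705, minus strand), had the largest difference of any member between roxadustat and control cells of the same day. Day 0 libraries had 4.87 and 6.25 CPM in control and 7.62 and 7.15 CPM in roxadustat cells. At day 7 they had 3.62, 5.02, 3.03 and 3.65 CPM in control against 1.58, 1.79, 1.74 and 1.72 CPM in roxadustat cells. By day 21 control libraries had reached 56.3, 61.5, 70.0 and 60.8 CPM, while roxadustat libraries stood at 1.91, 2.498, 3.38 and 3.05 CPM. The 4 control libraries of day 21 stood apart from all other libraries, none of which passed 7.62 CPM.

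For Steap3 the log2 fold change was -1.16 ± 0.17 at day 7 (edgeR adjusted p = 1.64e-06) and -4.53 ± 0.13 at day 21 (adjusted p = 5.38e-22), a 23.1-fold lower level. It was not called at day 0 (0.41 ± 0.19, adjusted p = 0.232). The effect at day 21 was lower than that at day 7 by -3.37 ± 0.23 (adjusted p = 8.43e-13), and control cells alone rose 16.2-fold between these days (adjusted p = 3.56e-21). Fibroblast and pericyte markers took the same course at day 21, when 13 of 13 were lower in roxadustat cells, as were 32.9% of all genes. Their sum in control cells was 11676 to 12323 CPM at day 7 and 52081 to 55098 CPM at day 21. Their part in the Steap3 values was not tested. Over the 20 libraries the genes most like Steap3 in log2 CPM among 11338 compared were Col14a1 (Pearson r = 0.987), Gda (0.986) and Col24a1 (0.986). All libraries of a group share its level, so these values describe the group pattern.

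Slc11a2, the endosomal and surface carrier of ferrous iron also called DMT1 (ENSMUSG00000023030, chromosome 15, 100387898 to 100425072, minus strand), was 2.37-fold lower in control cells at day 7 than at day 0 (129 ± 9.01 to 54.3 ± 1.92 CPM, adjusted p = 1.09e-16). Roxadustat cells made a like step, from 122 ± 2.01 to 46.6 ± 0.751 CPM (2.61-fold, adjusted p = 1.24e-17). The arms differed little: at day 7 control libraries had 56.7, 54.2, 54.0 and 52.1 CPM and roxadustat libraries 46.5, 46.4, 47.7 and 45.9 CPM. That day 7 difference was -0.22 ± 0.05 (edgeR adjusted p = 0.00118) without overlap of the arms. At day 21 it was -0.15 ± 0.05 (adjusted p = 0.0172), and this call ended in 4 alternatives, among them without replicate 1 of control (0.0793) or of roxadustat (0.0653), and turned to 0.20 under library size alone (adjusted p = 0.00449), so no direction is given for day 21.

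Trf, transferrin itself (ENSMUSG00000032554, chromosome 9, 103204001 to 103230444, minus strand), was near the limit of detection. The libraries held 11 and 13 counts in control and 33 and 22 in roxadustat cells at day 0, and 6 to 18 counts in culture. At day 0 it was called higher by 1.30 ± 0.38 (edgeR adjusted p = 0.0339), but the adjusted p was 0.0553 with DESeq2, 0.227 in a fit of the day 0 libraries alone and 0.0534 to 0.281 when any 1 of the 4 libraries was left out. No difference was called at day 7 or day 21 (adjusted p = 0.201 and 0.0743). At day 21 it was 0.63 ± 0.30, and 4 of 17 alternatives called it higher: library size alone (0.97, adjusted p = 0.00586), upper quartile (0.0438), limma voom (0.0452) and without control replicate 1 (0.98, adjusted p = 0.0113). Of its exon bases 63.5% are shared with the read-through gene Gm20425 on the same strand, which had 0 counts in all libraries, so its values are uncertain.

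**Figure D4:**
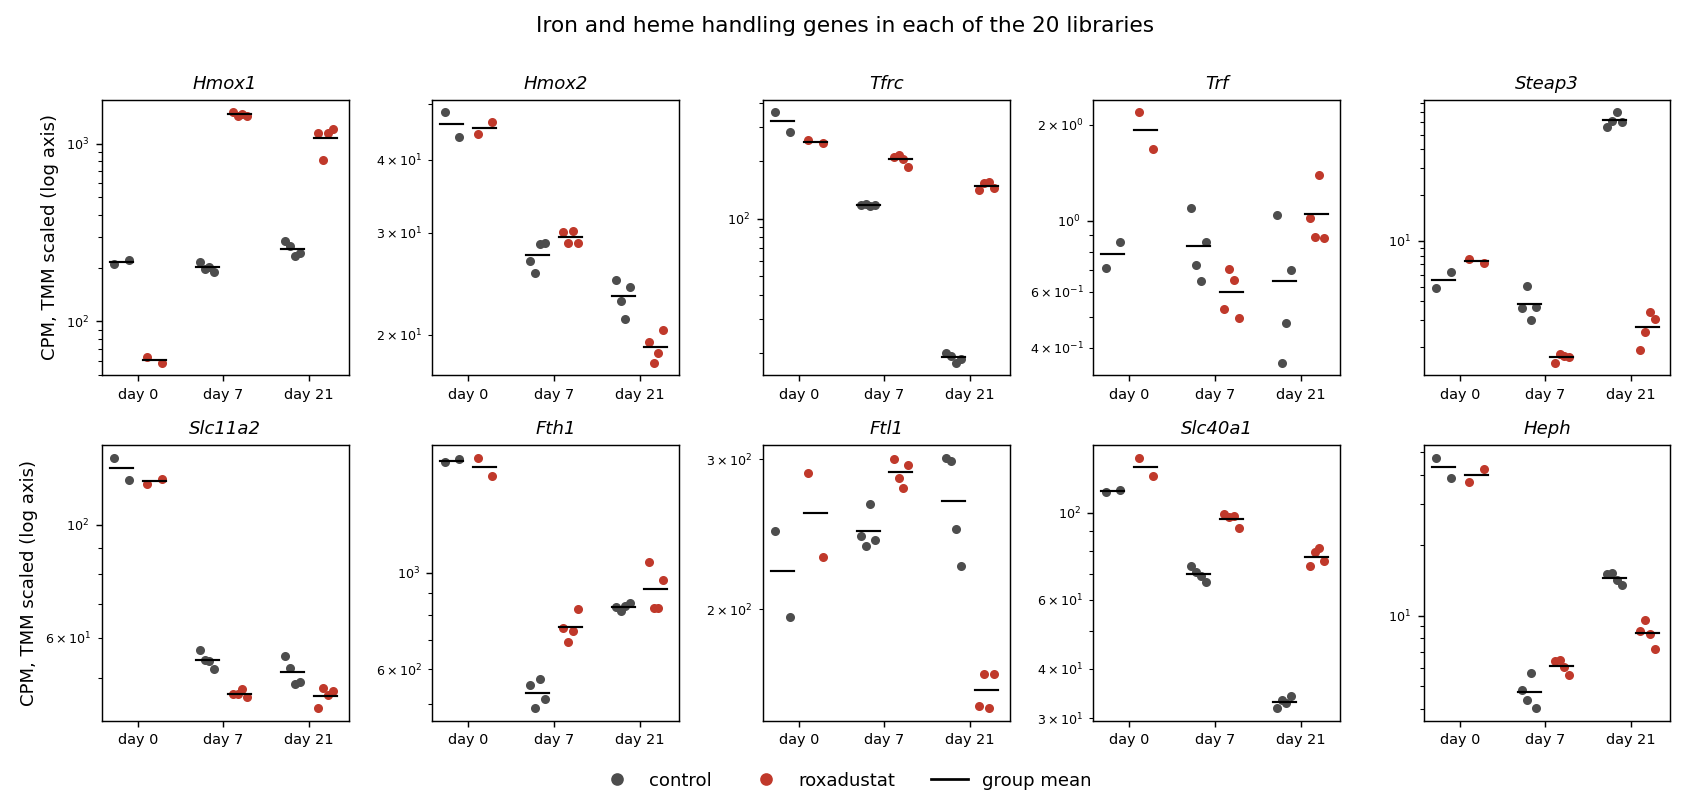
CPM of each member (TMM scaled, log axis, scale set per gene) in the 20 libraries by day; points are libraries, control in grey and roxadustat in red, and lines are group means. Tfrc and Slc40a1 fall from day 7 to day 21 more steeply in control than in roxadustat cells, Steap3 is high in the 4 control libraries of day 21 alone, and the Trf panel spans only 0.360 to 2.19 CPM.

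The ferritin chains parted in culture. Fth1, the heavy chain with the iron-oxidising activity of ferritin (ENSMUSG00000024661, chromosome 19, 9980598 to 9985098, plus strand), was the most abundant member per kilobase in fresh cells, at 523 CPM per kilobase of exon in control against 165 for Ftl1. It had 1794 and 1832 CPM in control and 1839 and 1667 CPM in roxadustat libraries at day 0. At day 7 the values were 552, 488, 569 and 512 CPM in control and 748, 692, 735 and 824 CPM in roxadustat cells. The arms overlapped at day 0 and did not at day 7, when the fitted difference was 0.50 ± 0.07 (edgeR adjusted p = 1.15e-06). At day 21 control libraries had 835, 817, 839 and 854 CPM and roxadustat libraries 1059, 828, 829 and 960 CPM. This overlap went with a difference of 0.14 ± 0.07 that was not called (adjusted p = 0.0943), although it was called higher in 5 alternatives, with 0.48 under library size alone (adjusted p = 3.04e-07), 0.22 under the upper quartile (0.00853), 0.19 with only the groups compared (0.0387), 0.19 without roxadustat replicate 2 (0.0292) and 0.18 without replicate 3 (0.0352).

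Fth1 thus had its highest level in fresh cells, with a fall of 3.42-fold to day 7 in control (adjusted p = 3.29e-17) and of 2.34-fold in roxadustat cells (adjusted p = 1.94e-13). It rose again to day 21 by 0.66 ± 0.07 in control and 0.29 ± 0.07 in roxadustat cells. Ftl1, the light chain that aids formation of the iron core (ENSMUSG00000050708, chromosome 7, 45457944 to 45459884, minus strand), showed no such fall: its level was 222 ± 36.2 CPM at day 0 and 247 ± 12.9 CPM at day 7 in control (0.16 ± 0.11, adjusted p = 0.195). In 4 alternatives this step was called higher, by 0.19 to 0.58, among them without control day 0 replicate 1 (0.35, adjusted p = 0.0288).

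Ftl1 libraries of day 21 had 301, 299, 248 and 225 CPM in control and 154, 168, 153 and 168 CPM in roxadustat cells. All roxadustat libraries lay below all control libraries, and the log2 fold change was -0.74 ± 0.09 (edgeR adjusted p = 1.9e-07). The 4 control values split as the 2 close pairs do. At day 7 Ftl1 was called higher by 0.23 ± 0.09 (adjusted p = 0.0341), a call that ended in 8 alternatives, with adjusted p of 0.0769 under the size factors of DESeq2 and of 0.0511 to 0.0851 in the 6 of 8 fits without 1 library that lost it. These were the fits without control replicate 1, 2 or 4 and without roxadustat replicate 1, 2 or 4. The effect on Ftl1 changed by -0.97 ± 0.12 from day 7 to day 21 (adjusted p = 1.04e-06).

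In each library the ratio of Fth1 to Ftl1 counts was 8.30 ± 1.48 in control and 6.80 ± 0.607 in roxadustat cells at day 0 (SD, n = 2). It was 2.15 ± 0.0846 against 2.59 ± 0.164 at day 7 and 3.17 ± 0.511 against 5.74 ± 0.826 at day 21 (n = 4 each). Roxadustat libraries had the higher ratio at both culture days with no overlap (exact permutation test, two-sided, p = 0.02857, adjusted 0.02857, the smallest possible). The control ratios of day 21 split as the 2 close pairs do, with 2.77 and 2.74 against 3.38 and 3.80. The test takes these libraries as separate, so its p at day 21 may be too small. Of the exon bases of Ftl1, 34.6% are shared with Gm22133 on the same strand, which had 0 counts, and with Gm10252 on the other strand, not analysed here, in libraries that keep no strand, so the Ftl1 values and this ratio are uncertain to that extent. Reads of ferritin genes can also be split with their pseudogenes. The light chain pseudogenes Ftl1-ps1, Ftl1-ps2 and Ftl2-ps had 50, 80 and 9 counts over all 20 libraries and Fth-ps2 had 159, and how reads with several matches were counted is not given in the sources used here.

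Slc40a1 encodes ferroportin, the iron exporter of mammalian cells (ENSMUSG00000025993, chromosome 1, 45908068 to 45926523, minus strand). It fell with time, more in control than in roxadustat cells, and was higher in roxadustat than in control culture. Control libraries had 113 and 115 CPM at day 0, 73.3, 70.6, 69.1 and 66.7 CPM at day 7, and 31.8, 33.3, 32.7 and 34.1 CPM at day 21. Roxadustat libraries had 138 and 124 CPM at day 0, 99.5, 97.3, 97.9 and 91.4 CPM at day 7, and 73.2, 79.3, 81.4 and 75.2 CPM at day 21. Roxadustat libraries were above control libraries without overlap on all 3 days. The fall of roxadustat cells from day 0 to day 7 was -0.44 ± 0.06 (adjusted p = 2.54e-07) and was lost under library size alone (-0.0055, adjusted p = 0.942). From day 7 to day 21 both arms fell, by -1.08 ± 0.05 in control (edgeR adjusted p = 8.0e-16) and -0.32 ± 0.05 in roxadustat cells (adjusted p = 5.95e-06). The log2 fold change was 0.21 ± 0.07 at day 0, which was not called (edgeR adjusted p = 0.0866; 0.0420 with DESeq2), 0.46 ± 0.05 at day 7 (adjusted p = 1.6e-08) and 1.23 ± 0.06 at day 21 (adjusted p = 2.8e-17). Between day 7 and day 21 the effect grew by 0.76 ± 0.07 (adjusted p = 1.87e-09).

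Tfrc and Slc40a1, the message for iron entry and the one for iron exit, were therefore both higher in roxadustat than in control cells at day 7 and day 21, and the effect on both grew between those days. The general kidney epithelium markers, given above for Tfrc, were higher together with Slc40a1 too, with 10 of 12 higher at day 7 and 12 of 12 at day 21. Over the 20 libraries log2 CPM of Slc40a1 and Tfrc had a Pearson r of 0.98, a description of the group pattern that libraries of a group share. Macrophages carry much Slc40a1 as well, and their marker sum was lower in roxadustat culture. The part of either cell type in the Slc40a1 values was not tested.

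Heph, hephaestin, a membrane ferroxidase that works with ferroportin (ENSMUSG00000031209, chromosome X, 96455359 to 96574485, plus strand), dropped on culture and recovered in part. Control libraries had 47.3 and 38.9 CPM at day 0, 4.79, 4.35, 5.68 and 4.03 CPM at day 7, and 15.1, 15.2, 14.2 and 13.6 CPM at day 21. Roxadustat libraries had 37.3 and 42.3 CPM at day 0, 6.39, 6.47, 6.05 and 5.56 CPM at day 7, and 8.57, 9.60, 8.35 and 7.23 CPM at day 21. The arms overlapped at day 0 and at day 7, and at day 21 all roxadustat libraries were below all control ones. Heph fell 9.14-fold from day 0 to day 7 in control and 6.49-fold in roxadustat cells (edgeR adjusted p = 7.36e-20 and 1.96e-18).

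At day 7 Heph was called higher with roxadustat by 0.38 ± 0.12 (edgeR adjusted p = 0.00966; 0.0502 without control replicate 4), and at day 21 lower by -0.79 ± 0.10 (adjusted p = 1.68e-07). The difference between these effects was -1.16 ± 0.16 (adjusted p = 5.3e-07). Both exporter genes were thus higher at day 7, and at day 21 Slc40a1 was higher and Heph lower. Summed proximal tubule markers, given at the start, were also lower in culture than in fresh cells, and their part in the falls of Fth1, Heph and Slc11a2 was not tested.

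Each step in time moved 7 or 9 of the members. From day 0 to day 7, 7 members fell in control cells and none rose (39.5% of all genes fell and 37.0% rose), and 8 fell and 1, Hmox1, rose in roxadustat cells (37.6% and 37.1% of all genes). From day 7 to day 21, 4 rose and 3 fell in control cells (34.5% and 34.3% of all genes), and 4 rose and 5 fell in roxadustat cells (28.6% and 32.9%). Control cells of these days also serve the comparisons with roxadustat, so the values are not independent of each other. The roxadustat effect at day 7 differed from that at day 0 for 7 members, with 5 higher and 2 lower (15.5% and 13.4% of all genes), and the effect at day 21 from that at day 7 for 9, with 3 higher and 6 lower (20.9% and 23.8%). The first count of 5 was 3 without control day 0 replicate 1 or control day 7 replicate 4, when Heph and Slc40a1 lost their calls. Slc11a2 was the member without such a difference in either test, and Hmox2 and Ftl1 had one only between day 21 and day 7.

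By likeness over the 20 libraries, Tfrc was closest to Tpd52 (Pearson r = 0.993), Car2 (0.992) and Spint1 (0.991). Hmox1 was closest to Insig2 (0.971), Fads3 (0.969) and Adamts1 (0.959), and Heph to Tmco4, Arhgef10l (0.986 each) and Ccser2 (0.983). With Steap3 these are the 4 members whose group means spanned the widest range, 3.07 to 4.82 on the log2 scale.

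Other genes of iron and heme handling were counted in lists chosen by function. Their counts stand beside the shares of all genes given above, which were 2.73% higher and 4.11% lower in fresh cells, 24.1% higher and 23.6% lower after 7 days, and 30.0% higher and 32.9% lower after 21 days, and nothing particular to a list is read from them. Of 16 tested genes of other iron transport and chaperones, none was higher and 2 were lower at day 0, 8 higher and 2 lower at day 7, and 8 higher and 8 lower at day 21. Cp, ceruloplasmin, a ferroxidase related to hephaestin, was at 64.1 ± 4.23 CPM in control and 2089 ± 100.2 CPM in roxadustat cells at day 21 (SD, n = 4; log2 fold change 5.03 ± 0.08, edgeR adjusted p = 1.87e-27), opposite in direction to Heph. Steap2, a metalloreductase of the same family as Steap3, was at 241 ± 7.52 and 921 ± 38.8 CPM (1.94 ± 0.05, adjusted p = 4.56e-22), and Steap1 rose too, by 1.88 ± 0.08. At day 0 the lower genes of the list were Cp (-0.49 ± 0.11, adjusted p = 0.00698) and Steap1 (-0.64 ± 0.18, adjusted p = 0.0271).

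Among 10 tested genes of iron sensing and systemic iron control, 4 were higher and 2 lower at day 7, and 6 higher and 3 lower at day 21. Bmp6, a signal that raises hepcidin in the liver, rose by 1.40 ± 0.07 at day 7 and 3.05 ± 0.09 at day 21 (edgeR adjusted p = 4.46e-15 and 5.75e-22). Fbxl5, which marks iron regulatory protein 2 for degradation, rose by 0.53 ± 0.06 and 0.71 ± 0.06. Ncoa4, the receptor that delivers ferritin to lysosomes, was lower at day 21 by -1.52 ± 0.10 (8.33 ± 0.617 against 24.1 ± 1.37 CPM, adjusted p = 1.7e-13). At day 0 only Bmp2 was called, with levels of 0.602 and 1.47 CPM.

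On the heme side, 11 tested genes of heme synthesis gave 1 higher and 1 lower in fresh cells, 4 higher and 3 lower at day 7, and 3 of each at day 21. Alas1, the first enzyme of the pathway, was higher on all 3 days, by 0.58 ± 0.09, 0.61 ± 0.07 and 0.40 ± 0.07 (edgeR adjusted p = 6.8e-05, 1.11e-08 and 1.06e-05), and Cpox was higher by 0.78 ± 0.05 at day 7 and 1.54 ± 0.06 at day 21. At day 0 Alas1 was thus higher where Hmox1 was lower. Among 14 genes of heme transport and bilirubin formation, none was called at day 0, 4 were higher and 3 lower at day 7, and 2 higher and 8 lower at day 21. Slc48a1, which carries heme out of lysosomes, rose by 0.99 ± 0.06 at day 7, and Blvrb, a biliverdin reductase, by 0.49 ± 0.08, while Flvcr1, a heme exporter, was lower by -0.36 ± 0.09. At day 21 Abcg2, a transporter that also carries porphyrins and heme, was lower by -1.03 ± 0.05, and Lrp1, the receptor for heme bound to hemopexin, was at 5727 ± 1446 CPM in control and 1237 ± 206 CPM in roxadustat cells (-2.21 ± 0.24). Lrp1 made up most of the summed level of this list at day 21, which was 4989 to 7601 CPM in control and 1534 to 2011 CPM in roxadustat libraries. The sum thus says little about the other genes of the list. Of 24 genes of iron-sulfur cluster assembly, 2 were lower at day 0, 6 were higher and 6 lower at day 7, and 4 higher and 10 lower at day 21, among them Fdxr (-1.47 ± 0.09) and Isca1 (-1.10 ± 0.09).

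**Figure D5:**
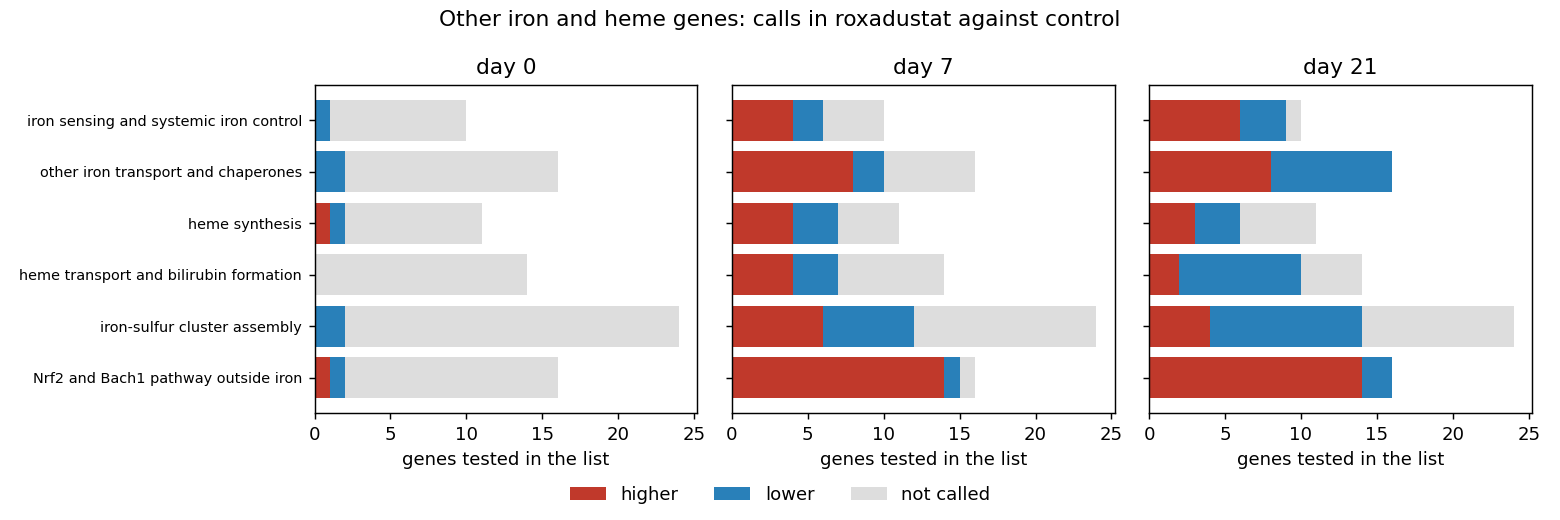
Number of tested genes called higher (red), lower (blue) or not called (grey) in roxadustat against control cells for 6 lists of iron, heme and related genes at day 0, 7 and 21. The Nrf2 and Bach1 list has 14 of 16 genes higher at day 7 and at day 21, and the iron-sulfur list has 4 of 24 higher and 10 lower at day 21.

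Hmox1 is also a target of Nrf2, and Bach1, a repressor that heme inactivates, holds it down, so other genes of that pathway were set beside it. The 16 genes tested include the regulators Nfe2l2, which encodes Nrf2, Bach1 and Keap1. At day 7, 14 of 16 were higher and 1 lower, and at day 21, 14 were higher and 2 lower. The median log2 fold change was 1.27 and 1.48, against 0.03 and 0 for all genes. Bach1 was at 93.2 ± 5.07 CPM in control and 69.0 ± 3.20 CPM in roxadustat cells at day 7 (SD). At day 21 it was at 102 ± 1.93 and 55.7 ± 2.66 CPM. Nfe2l2 was at 222 ± 3.17 and 222 ± 6.59 CPM at day 7, and at 176 ± 6.64 and 195 ± 5.78 CPM at day 21. Slc7a11, the cystine importer, rose by 1.80 ± 0.06 at day 7 and 3.83 ± 0.07 at day 21 (edgeR adjusted p = 1.81e-19 and 3.48e-26), and Gclm, a subunit of the enzyme that starts glutathione synthesis, by 3.11 ± 0.07 at day 21. At day 0, 1 was higher (Me1, 0.56 ± 0.08) and 1 lower: Srxn1, sulfiredoxin, at -0.49 ± 0.07 (159 ± 6.65 against 223 ± 6.88 CPM, adjusted p = 4.4e-05), in the direction of Hmox1. Immediate early and heat shock genes respond to the handling of tissue: of 15 tested, none was higher and 5 were lower with roxadustat at day 0, among them Atf3 (-0.56 ± 0.10) and Zfp36 (-0.62 ± 0.10), and their part in the lower Hmox1 of fresh cells was not tested. Of 12 HIF reference genes, 8, 12 and 12 were higher and none lower at day 0, 7 and 21. Beside all counts of this paragraph stand the shares of all genes tested. These were 2.73%, 24.1% and 30.0% higher and 4.11%, 23.6% and 32.9% lower on the 3 days. The part of Nrf2, Bach1 or HIF in the Hmox1 values was not tested.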

How the data were processed

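RNA of Sca-1 sorted kidney cells was measured in 20 libraries made with a non-stranded TruSeq mRNA kit, per the labels' protocols. The authors deposited 1 table per library with unnormalised counts for each Ensembl identifier. Per the submitters' processing notes, reads went through bcl2fastq, STAR 2.5.2a (build mm10) and featureCounts 1.5.0-p1; the annotation release is not given in the sources used here. Of 47729 identifiers 47224 matched GENCODE M21. All libraries entered the analysis, grouped by the treatment and time labels.

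Counts were fitted in R 4.3.3 with edgeR 4.0.16 (filterByExpr with a minimum count of 10, TMM scaling, robust quasi-likelihood F test, Benjamini-Hochberg adjustment over 18731 genes, threshold 0.05) in 1 model of all 20 libraries, since day 0 has 2 per group. Each SE was derived from the fold change and its F statistic, as the log2 value over the root of F. Levels are TMM scaled CPM; log2 CPM for likeness used a prior of 0.5 and genes with a mean of at least 5 CPM. Count ratios were compared by exact permutation. The fit was tested on simulated counts.

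Alternatives were the size factors of DESeq2, library size alone, upper quartile scaling, no filter, a mean of at least 1 CPM, DESeq2 1.42.0, limma 3.58.1 (voom), a replicate block, only the groups compared, the control day 21 libraries summed in pairs, and each library left out. The members and all lists were chosen with earlier results of these data known. All members are named. Of each wider list up to 4 genes with the smallest adjusted p per day may be named, and the 3 genes most like each of the 4 widest-ranging members. The levels of Nfe2l2 and Bach1 are given too. Sequences are from GENCODE M21 transcripts and RefSeq's promoter table, in which Heph, Hmox1, Slc11a2, Slc40a1 and Trf had no entry.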

Additional observations from a re-analysis of the deposited data

Results flagged for a closer look

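In roxadustat cells at day 21, replicate 2 had the lowest Hmox1 level, 813 CPM, set apart from the other libraries of its group at 1147 to 1211 CPM. Chance sets apart the highest or lowest library in about 1 of 20 groups, and this was the only one among 48 groups of 4 libraries examined (10 members and 2 ratios). Without that library the day 21 effect on Hmox1 stayed called higher.

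The roxadustat effect at day 7 differed from that at day 0 for 7 members by the test of the difference (edgeR, log2 scale). It was higher at day 7 for Hmox1 (4.69), Tfrc (1.14), Fth1 (0.55), Heph (0.49) and Slc40a1 (0.26), and lower for Steap3 (-1.57) and Trf (-1.77). Hmox1 and Tfrc were called lower at day 0 and higher at day 7. The day 0 call of Tfrc ended in a fit of the day 0 libraries alone (edgeR adjusted p = 0.383). The test for Heph ended without control day 0 replicate 1 (adjusted p = 0.166), and without roxadustat day 0 replicate 1 (0.130), control day 7 replicate 2 (0.0583) or 4 (0.0712), or roxadustat day 7 replicate 2 (0.0523), and with DESeq2 (0.0503). That for Slc40a1 ended without control day 0 replicate 1 (0.0518) or 2 (0.0804), roxadustat day 0 replicate 2 (0.234) or control day 7 replicate 4 (0.0571), and also under the size factors of DESeq2 (0.0538) and with no filter on low counts (0.112).

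The effect at day 21 differed from that at day 7 for 9 members. It was higher at day 21 for Tfrc (2.18), Trf (1.09) and Slc40a1 (0.76), and lower for Steap3 (-3.37), Heph (-1.16), Ftl1 (-0.97), Hmox1 (-0.78), Hmox2 (-0.39) and Fth1 (-0.36). Heph and Ftl1 were called higher at day 7 and lower at day 21. The day 7 call of Ftl1 ended in 8 alternatives, and that of Heph without control day 7 replicate 4 (edgeR adjusted p = 0.0502). The test for Trf, with 6 to 18 counts in culture, ended in 8 of the fits that left out 1 library, with adjusted p of 0.0504 to 0.0937, and with no filter on low counts (0.0805). Under library size alone the tests for Fth1 (-0.083, adjusted p = 0.511) and Hmox2 (-0.11, adjusted p = 0.374) ended.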

How the results depend on the processing

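Of 1591 member values recomputed under the alternatives, 1510 kept their direction and side of the threshold, 53 lost a call, 24 gained one and 4 changed direction. All 4 changes came with library size alone, which moved the median of all genes to 0.34 at day 21, 0.40 for control day 7 against day 0 and 0.46 for roxadustat day 7 against day 0 (log2): Hmox2 (0.061) and Slc11a2 (0.20) at day 21, Hmox1 in control day 7 against day 0 (0.32) and Tfrc in roxadustat day 7 against day 0 (0.13). With it, members called higher were 2 at day 0, 6 at day 21 (3 lower), 2 in control and 2 in roxadustat day 7 against day 0. With the upper quartile they were 2 at day 0, 5 at day 21, and 1 and 2 in those 2 steps; with no filter 1 and 2. At a mean of at least 1 CPM, which leaves Trf untested, 0 were higher at day 0 and 1 lower in the day 7 minus day 0 effect. With only the groups compared, 0 were higher and 1 lower at day 0.

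Leaving out 1 library gave 0 to 0 higher and 1 to 2 lower members at day 0 (a lone library is then assumed to vary like the other groups), 0 to 1 higher in control and 1 to 2 in roxadustat day 7 against day 0, and 3 to 5 higher in the day 7 minus day 0 effect. Pairing by replicate number was not seen in culture, where deviations of libraries of the same number had correlations of -0.125 to 0.114 at day 7 and -0.473 to 0.237 at day 21. Those of unlike number reached 0.148 at day 7 and 0.441 at day 21. At day 0, 2 libraries per arm can give only 1 value and its mirror, 0.130 and -0.130, so pairing cannot be judged there. With a replicate block the counts stayed at 1 higher and 2 lower (day 0), 6 and 2 (day 7), and 3 and 5 (day 21). Whether the calls lost elsewhere reflect depth was not tested; Trf and, in roxadustat culture, Steap3 are limited by counts of 6 to 62 per library.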
